A study of Mus musculus with 3 samples.

Results

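The miR-23, miR-27 and miR-24 miRNAs were followed in the plasma of exercised and caged mice. These miRNAs come from a pair of hairpin clusters. The probes were chosen by name: 8 of the 1900 miRNA probes on the chip, namely the 3p arms mmu-miR-23a-3p, mmu-miR-23b-3p, mmu-miR-24-3p, mmu-miR-27a-3p and mmu-miR-27b-3p and the 5p arms mmu-miR-23a-5p, mmu-miR-24-2-5p and mmu-miR-27b-5p. The mouse prefix is left out below. The study compared 3 groups of male C57BL/6 mice aged 8 weeks, a common inbred laboratory strain: mice after resistance exercise, mice after aerobic exercise and normally caged controls. Blood was taken 3 h after a single bout, from animals fasted overnight. Each group was measured as 1 pool of 300 µl, made from 100 µl of plasma of each of 3 mice and hybridized to 1 array. Every value below is therefore from 1 spot on 1 array, and no test between groups was possible. The sources used here do not give the exercise regimens.

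A miRNA hairpin is cut into a 5p and a 3p arm. The arm that is loaded into Argonaute represses messenger RNAs that pair with its seed, bases 2 to 8. Hairpins of a cluster are transcribed together from 1 primary transcript, but the amounts of the mature arms can diverge through processing and turnover. In mouse muscle miR-23a is known to repress Trim63 and Fbxo32, ubiquitin ligases that drive muscle wasting. miR-27 is known for repressing Pparg and adipocyte differentiation, and miR-23 and miR-27 together for promoting vessel sprouting by endothelium. miR-24 restrains cell cycle genes such as E2F2 in human blood cell lines, and it represses Gata2 in mouse cardiac endothelium.

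One cluster lies on mouse chromosome 8 and its paralog on chromosome 13 (RefSeq, GRCm38.p6, plus strand). On chromosome 8, Mir23a (chr8:84208518-84208592), Mir27a (chr8:84208672-84208758) and Mir24-2 (chr8:84208815-84208921) span 404 bp. On chromosome 13, Mir23b (chr13:63300484-63300557), Mir27b (chr13:63300712-63300784) and Mir24-1 (chr13:63301208-63301275) span 792 bp, inside the span of the protein-coding gene Aopep (chr13:62964893-63326096). Whether the hairpins lie in an exon or an intron was not annotated in the table used.

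RefSeq mature sequences were found for 7 of the 8 members and are shown because shared sequence limits what each probe can tell apart. They are written 5′ to 3′ with the seed in capitals, and miR-24-1-5p is set beside its paralog miR-24-2-5p.
miR-23a-3p: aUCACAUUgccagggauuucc
miR-27a-3p: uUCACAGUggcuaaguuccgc
miR-27b-3p: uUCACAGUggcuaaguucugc
miR-24-3p: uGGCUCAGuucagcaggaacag
miR-23a-5p: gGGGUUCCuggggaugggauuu
miR-24-2-5p: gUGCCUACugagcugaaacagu
miR-24-1-5p: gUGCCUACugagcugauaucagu
miR-27b-5p: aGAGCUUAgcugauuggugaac

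miR-27a-3p and miR-27b-3p had the same seed and were identical at 20 of 21 bases. The 1 substitution, C19U counted from the 5′ end with the base of miR-27a-3p first, lay outside the seed. The sources used here do not say how well the probes separate such paralogs. The paired miR-27 spots, and those of the paralogs miR-23a-3p and miR-23b-3p, may not be independent. miR-24-3p is the same from both clusters, so its spot cannot be assigned to either. The 5p arms miR-24-2-5p and miR-24-1-5p shared their first 16 bases and a seed.

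Over the repeated spots of the 2 spike-in probes the pooled log2 SD was 0.11, which gives 0.32 for 2 SD of a difference between 2 spots. This is called spot scatter below. The 16 spots of the dim Negative Control 1 probe gave a wider 0.77, which no member difference reached in the quantile-normalized values. Neither covers differences between mice, pools or arrays. The spike-in spots, at mean raw intensities of 12526 to 19095 over the arrays, were far brighter than any member. Spot scatter at the members' brightness was not measured. A miRNA was called detected above the mean of the blank spots plus 2 SD, and 1372, 1364 and 1431 probes passed on the resistance, aerobic and control arrays. Blank means were 93.3, 92.9 and 92.0 in the same order. Before scaling, the log2 means of the 2 spike-in probes exceeded those of the control array by 0.05 and 0.04 on the resistance array and by 0.13 for both on the aerobic array.

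In raw intensity, the 7 members detected on all arrays were higher in both exercise pools than in the control pool, and the 2 exercise pools lay close together. Without scaling, the median log2 difference from control over all compared probes was 0.0088 for resistance and 0.20 for aerobic. Higher intensity on the aerobic array was thus not particular to the members. miR-24-3p had raw intensities of 1387 in resistance, 1278 in aerobic and 906 in control plasma. For miR-23a-3p they were 1214 in resistance, 1258 in aerobic and 869 in control plasma. Its paralog miR-23b-3p stood at 1160 in resistance, 1148 in aerobic and 867 in control plasma. The control pool was the lowest for all 3 of these miRNAs, while the exercise pools changed places between them.

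The control pool was also the lowest for the miR-27 spots. miR-27a-3p, from chromosome 8, had raw intensities of 422 in resistance, 466 in aerobic and 312 in control plasma. miR-27b-3p, from chromosome 13, had 321 in resistance, 311 in aerobic and 225 in control plasma. Among the 5p arms, miR-23a-5p, the arm opposite miR-23a-3p, had 348 in resistance, 374 in aerobic and 256 in control plasma. Its order over the pools was that of miR-23a-3p.

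The other 5p arms were near background. miR-24-2-5p had 114 in resistance, 115 in aerobic and 107 in control plasma and was detected on all 3 arrays. miR-27b-5p had 91.0 in resistance, 99.3 in aerobic and 91.3 in control plasma and was detected in the aerobic pool alone. Its aerobic spot lay 2.09 SD above the blank mean, just past the cutoff of 2 SD. Its quantile-normalized value there was 1.03-fold the dimmest detected value on the control array, a difference within spot scatter. Of the other arms of these hairpins on the chip, miR-27a-5p was detected on no array, miR-23b-5p on the resistance and aerobic arrays and miR-24-1-5p on the resistance and control arrays. The spots of these 3 arms all lay between 91.6 and 101.2.

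**Figure D1:**
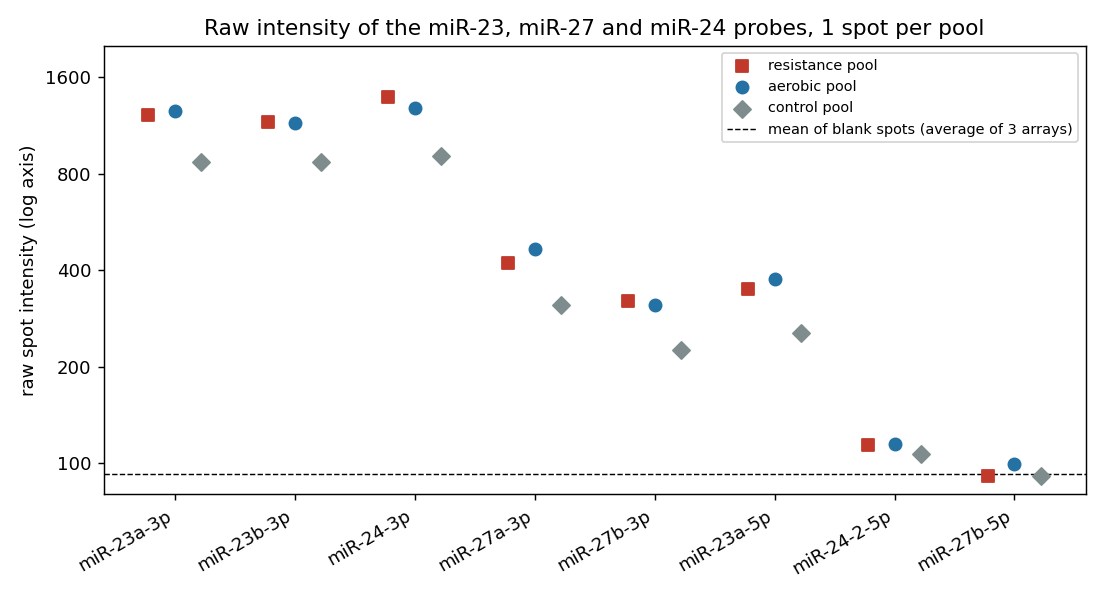
Raw spot intensity (log axis) of the 8 members in the resistance, aerobic and control pools, 1 spot each, with the mean of the blank spots as a dashed line. The control point is the lowest for the 7 members detected on all arrays, while miR-27b-5p lies at the blank level in resistance and control plasma. Over all compared probes the unscaled median log2 difference from control was 0.0088 for resistance and 0.20 for aerobic.

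The members together carried a larger part of the miRNA signal in the exercise pools than in the control pool. Only members detected on the array were summed, 7 in resistance, 8 in aerobic and 7 in control plasma. As a share of all intensity above background on the same array, they made up 1.01% in resistance, 0.758% in aerobic and 0.625% in control plasma. Such a share scales each array by its own total signal. The summed intensities above background were 4314, 4306 and 2897 in the same order. The sums of the 2 exercise pools were thus near equal, while the aerobic array carried more signal in all. Totals over the detected probes were 428423 in resistance, 567695 in aerobic and 463539 in control plasma. The shares of the 2 exercise pools therefore differed through these totals.

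The first comparison was of resistance exercise with control. All 7 members detected on both arrays were higher in resistance plasma, 6 of them beyond spot scatter, and miR-24-3p was the one that reached 1.5-fold. Over all 1336 compared probes 44.2% were higher by any amount, 5.61% beyond spot scatter and 1.65% by 1.5-fold or more. Among the 502 probes of miRNAs numbered under 1000, mostly the longer known ones, those shares were 58.2%, 11.4% and 3.59%. The median of the 7 members was 0.54, against -0.012 over all compared probes. The offset added before normalization draws differences of dim probes towards 0. Without it, 61 in place of 22 of all compared probes, and 3 members in place of 1, were 1.5-fold higher or more.

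After normexp correction and quantile normalization, miR-24-3p stood at a log2 intensity of 10.60 in resistance and 9.90 in control plasma, a difference of 0.69 or 1.62-fold. It held the rank of 11 from the highest among the 1336 differences. miR-23a-3p differed by 0.57 and, at 1.49-fold, lay just under 1.5-fold. Its paralog miR-23b-3p differed by 0.54. The miR-27 pair stood at 0.49 for miR-27a-3p and 0.56 for miR-27b-3p. The 5 differences of the 3p arms had an SD of 0.08 among themselves, less than the SD of 0.16 that spike-in spots give for 1 difference. Paralog spots may not be independent and the spike-in spots were far brighter, so agreement among the 5 arms was not tested.

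The 5p arms were apart from one another. miR-23a-5p was 1.37-fold higher, with a difference of 0.46 beside the 0.57 of its 3p arm. miR-24-2-5p differed by 0.11, within spot scatter, but its dim spots make that value depend on the background correction. In the authors' normalized values, to which no offset was added, it was 1.33-fold higher in resistance plasma. None of the compared members was lower, and 0.524% of all compared probes were 1.5-fold lower or more.

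Aerobic exercise was next compared with control. All 7 compared members were again higher in the exercise pool, by a median of 0.14 against 0 over all 1321 compared probes, of which 48.6% were higher by any amount. Beyond spot scatter were 2 members, miR-27a-3p and miR-23a-5p, where 3.79% of all compared probes were. None reached 1.5-fold, which 0.454% of all compared probes did. Among the 490 probes of miRNAs numbered under 1000, 56.3% were higher by any amount, 6.33% beyond spot scatter and 0.612% by 1.5-fold or more. miR-27a-3p and miR-23a-5p both come from the chromosome 8 cluster, but the miR-27 probes may not be specific, and a difference between the clusters was not tested.

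miR-27a-3p had a log2 intensity of 8.57 in aerobic and 8.24 in control plasma, a difference of 0.33 or 1.26-fold. miR-23a-5p differed by 0.33 as well. miR-27b-3p stood at 0.25. The miR-23 and miR-24 3p arms differed less, by 0.14 for miR-23a-3p, 0.10 for miR-24-3p and 0.07 for miR-23b-3p. All 4 of these values lay within spot scatter, as did the 0.02 of miR-24-2-5p.

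The size of the aerobic difference depended on scaling. Without any scaling between arrays miR-27a-3p stood at 0.64, miR-23a-3p at 0.56, miR-27b-3p at 0.55 and miR-24-3p at 0.52 above control. The median of the 7 members was then 0.55, against 0.20 over all compared probes. Scaling to the spike-in spots gave a member median of 0.42 and scaling to the array medians 0.37, against 0.066 and 0.0088 over all compared probes. In the authors' normalized values the member median was 0.12, against -0.073 over all compared probes. There miR-23b-3p stood at -0.027, lower in aerobic plasma.

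For resistance against control the choice mattered less. The member median was 0.50 without scaling, 0.46 with scaling to the spike-in spots and 0.49 in the authors' normalized values. Over all compared probes the medians were 0.0088, -0.036 and -0.13 in the same order. All 7 members remained higher under each of these settings, as with the other alternatives that compare the same probes. Without scaling the 1.5-fold mark was reached by miR-24-3p and miR-27b-3p. In the authors' normalized values miR-27b-3p reached it, at 1.61-fold, while miR-24-3p, at 1.49-fold, did not.

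**Figure D2:**
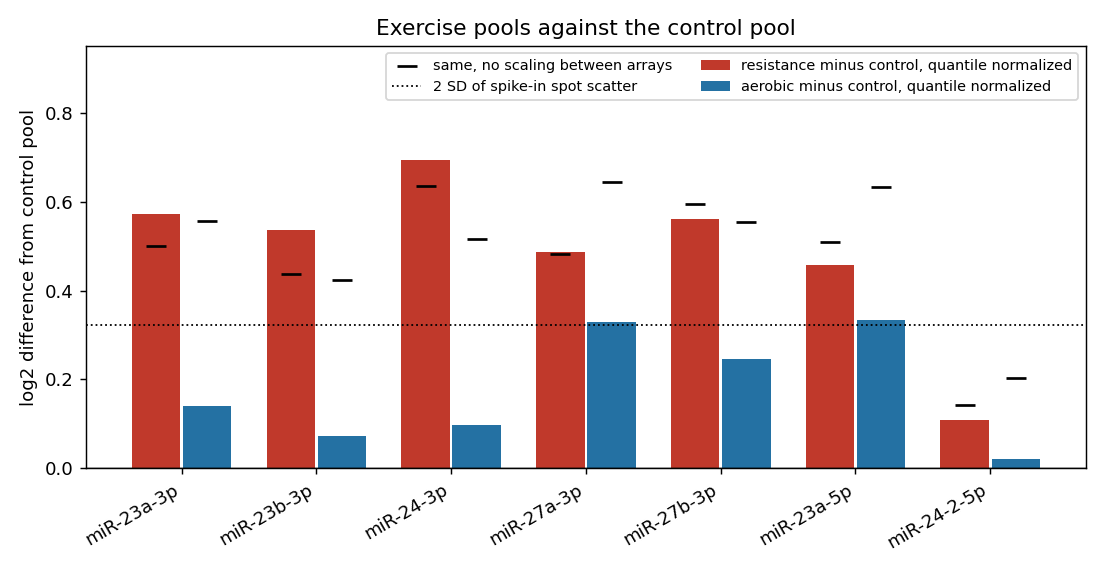
Log2 difference of the resistance and aerobic pools from the control pool for the 7 members detected on all arrays. Bars are quantile-normalized values, dashes the same without scaling, and the dotted line marks spot scatter of 0.32. The dashes lie clearly above the bars for the aerobic pool and near them for the resistance pool.

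The differences of both exercise pools share the control array and are not independent. Quantile normalization moved bright and dim probes by unequal amounts, while median and spike-in scaling moved all probes of an array alike. The 1296 probes detected on all arrays were split by mean intensity into 4 bins of 324, and 6 of the 7 members lay in the brightest bin. Without scaling, the median difference of that bin from control was -0.06 for the resistance array and 0.29 for the aerobic array. In the dimmest bin these medians were 0.02 for resistance and 0.14 for aerobic. After quantile normalization the medians of the brightest bin were -0.04 for resistance and 0 for aerobic. Those of the dimmest bin were -0.0026 for resistance and -0.002 for aerobic.

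**Figure D3:**
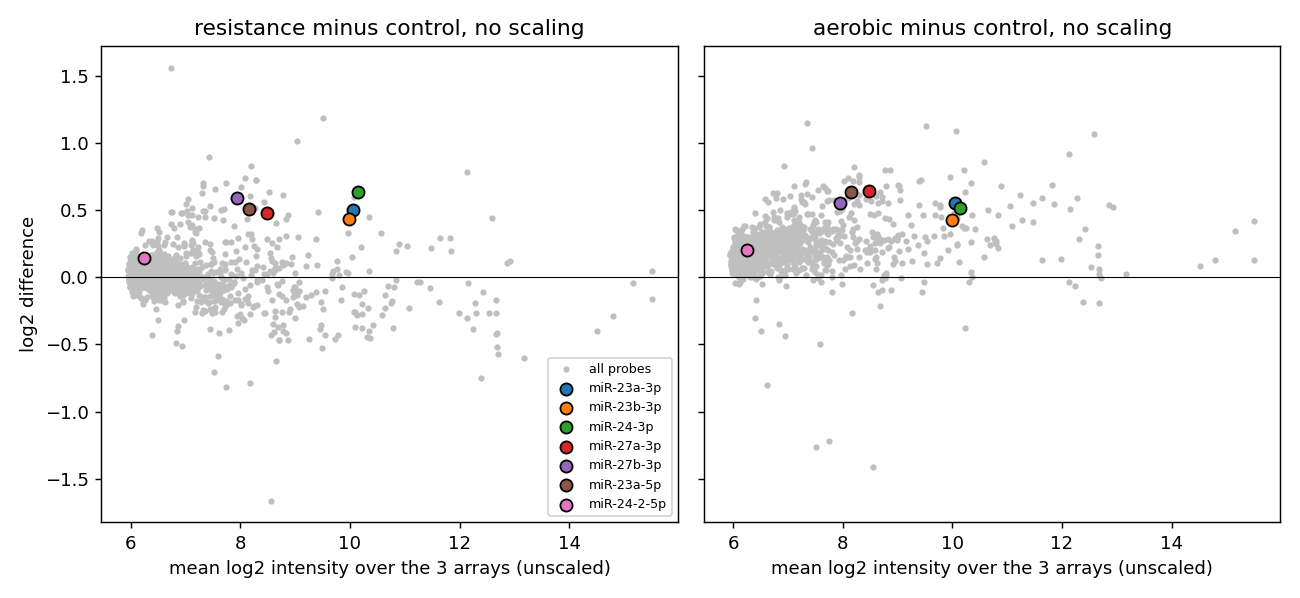
Log2 difference from the control pool without scaling (vertical axis) against mean log2 intensity over the 3 arrays (horizontal axis), for resistance on the left and aerobic on the right. Grey points are the 1296 probes detected on all arrays. The 6 brighter members lie between 0.42 and 0.64 in both panels, while the grey cloud lies higher in the aerobic one.

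The last comparison was of resistance with aerobic exercise. In the quantile-normalized values all 7 members were higher in resistance than in aerobic plasma, with a median of 0.31 against -0.0064 over all 1307 compared probes, of which 46.6% were higher by any amount. miR-24-3p, miR-23b-3p and miR-23a-3p exceeded spot scatter, as 1.91% of all compared probes did. miR-24-3p alone of the members reached 1.5-fold, which 0.536% of all compared probes did. Of the 487 compared miRNAs numbered under 1000, 56.9% were higher by any amount, 3.7% beyond spot scatter and 1.23% by 1.5-fold or more.

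These differences turned on the scaling. miR-24-3p had a log2 intensity of 10.60 in resistance and 10.00 in aerobic plasma, a difference of 0.60, which became 0.20 with spike-in scaling and 0.12 without scaling. miR-23a-3p differed by 0.43 after quantile normalization, by 0.030 with spike-in scaling and by -0.055 without scaling. miR-23b-3p went with it, at 0.46, 0.10 and 0.013 under the same settings. Without scaling, all 7 differences were within spot scatter, and 3 of 7 members were higher in the resistance pool. Their median was then -0.055, against -0.19 over all 1307 compared probes. The brightest bin of probes had a median of -0.34 for resistance minus aerobic.

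After quantile normalization the miR-27 and 5p arms showed smaller differences between modes than the other 3 members, an order that did not hold without scaling, with median or spike-in scaling or in the authors' normalized values. miR-27a-3p stood at 0.16 after quantile normalization and at -0.16 without scaling. miR-23a-5p stood at 0.12 and -0.12 in the same order. miR-27b-3p, at 0.31 and 0.040, kept its sign. In the authors' normalized values miR-24-3p was 1.42-fold, miR-27b-3p 1.36-fold and miR-27a-3p 1.15-fold higher in the resistance pool.

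**Figure D4:**
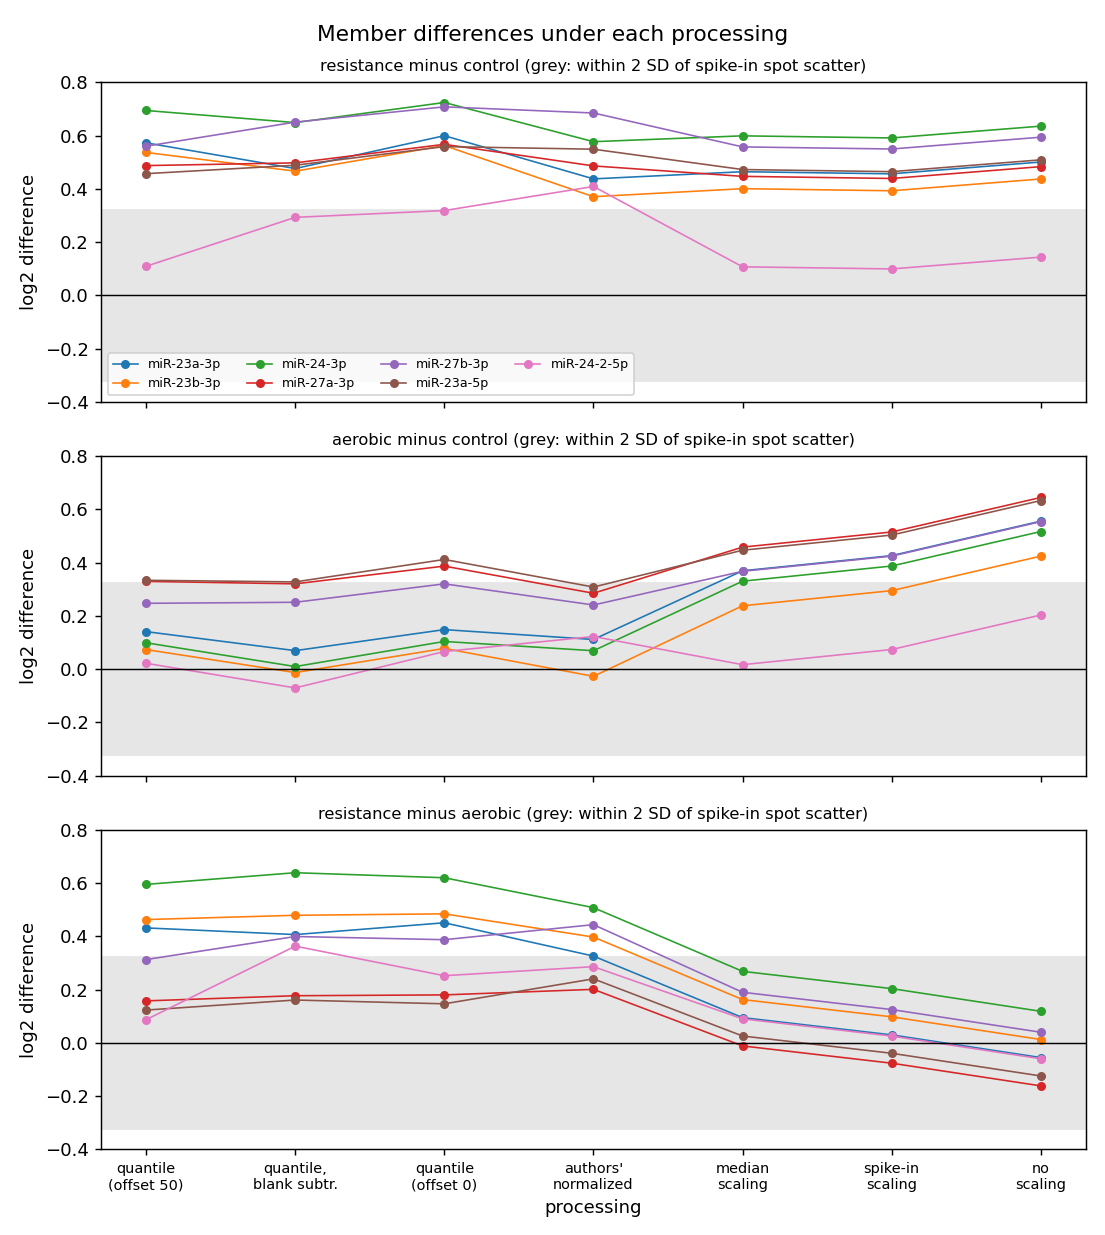
Log2 difference of the 7 members for resistance minus control, aerobic minus control and resistance minus aerobic (panels from top to bottom) under 7 ways of processing, with spot scatter shaded in grey. In the top panel every line stays above 0; in the bottom panel the lines drop to between -0.16 and 0.12 without scaling.

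Ratios between members on the same array do not depend on a scaling factor. In 9 pairs of members the log2 ratio of intensities above background changed over the 3 arrays by 0.14 to 0.31, all under the 0.46 that spike-in spots give for 2 SD of such a change. The pairs reuse the same spots, and that limit comes from far brighter ones. Changes under it do not show that the members moved evenly. The ratio of miR-23a-3p to miR-23b-3p differed between the resistance and control arrays by 0.07 and between the aerobic and control arrays by 0.14. That of miR-24-3p to miR-27a-3p was 0.31 higher on the resistance than on the aerobic array. miR-27b-3p gained on miR-23b-3p, both of chromosome 13, by 0.31 on the resistance array and 0.27 on the aerobic array, each against control. Between the arms of Mir23a, the log2 ratio of 3p to 5p differed from that on the control array by -0.11 on the resistance array and by -0.20 on the aerobic array.

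Other probes of the same loci or seeds, chosen after their values were seen, stood nearer to control. The hairpins Mir3074-2 and Mir3074-1 overlap Mir24-2 and Mir24-1 on the opposite strand. Their 3p arms were near background, with resistance minus control differences of -0.08 for miR-3074-2-3p and -0.07 for miR-3074-1-3p, while miR-3074-5p stood at 0.02. RefSeq lists 4 further miRNAs with the seed of miR-24-3p. miR-6413 was detected on no array, and miR-5124b, miR-6369 and miR-6410 differed between resistance and control by 0.03, 0 and 0.09. All of these probes were dim, at raw intensities between 91.2 and 128.9.

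Some miRNAs outside the clusters followed the same course over the pools. Likeness was the distance between a probe's 2 quantile-normalized differences from control and the medians of the 5 3p arms, 0.56 for resistance and 0.14 for aerobic, over 1296 probes and 3 arrays. The 6 nearest were miR-30b-5p at a distance of 0.06, miR-195a-5p at 0.09, miR-2139 at 0.10, and miR-30a-5p, miR-26b-5p and miR-378a-3p at 0.13 each. miR-30b-5p had raw intensities of 333 in resistance, 314 in aerobic and 233 in control plasma. Of the members, miR-24-3p at 0.14, miR-27a-3p at 0.20, miR-23a-5p at 0.22 and miR-24-2-5p at 0.47 lay farther from the medians than those 6 probes did.

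**Figure D5:**
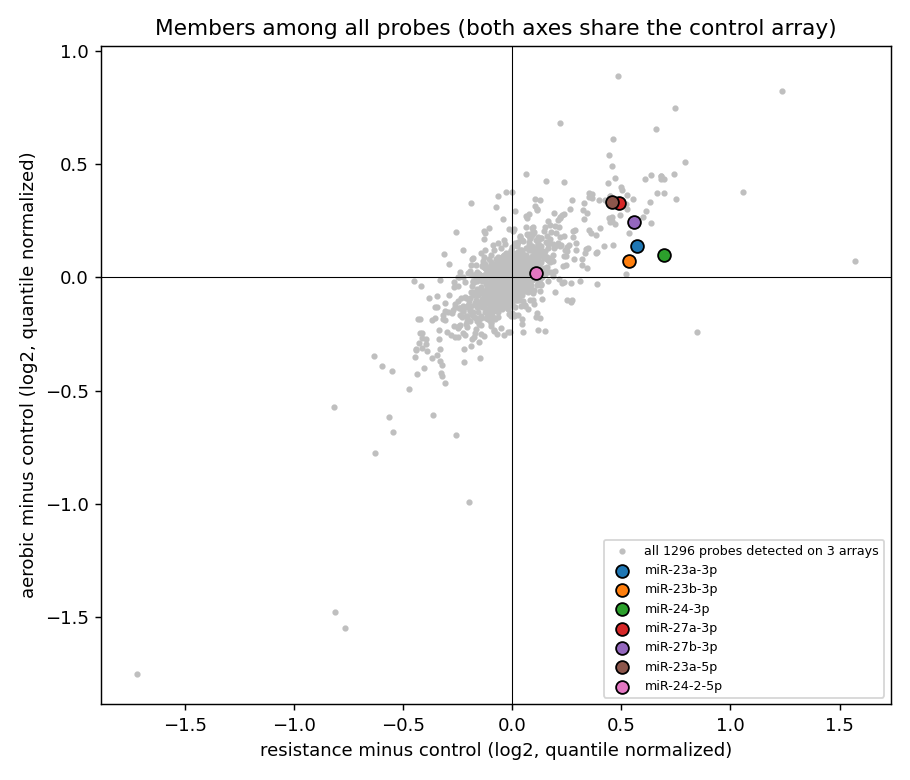
Quantile-normalized log2 difference from control of the 1296 probes detected on all arrays, resistance on the horizontal and aerobic on the vertical axis, which share the control array. The members other than miR-24-2-5p lie between 0.46 and 0.69 on the horizontal axis and between 0.07 and 0.33 on the vertical axis.

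Plasma holds miRNAs released by several cell types, and the medians of some of their marker lists rose with the members. In a plasma pool, more cells releasing a miRNA and more release by each cell cannot be told apart. The lists overlap: miR-126a-3p is on the platelet and the endothelium and smooth muscle lists, and miR-223-3p on the platelet and leukocyte lists. For erythrocytes, 6 of 7 probes were detected on every array, with summed intensities above background of 6739 in resistance, 7285 in aerobic and 3814 in control plasma, and miR-144-5p was detected on none. Their median difference from control was 0.47 for resistance and 0.30 for aerobic. Single erythrocyte probes ran from 0.01 for miR-363-3p to 1.24 for miR-16-5p in resistance, and from 0.03 to 0.82 in aerobic. The 5 platelet probes, detected on all arrays, summed to 1199, 1335 and 919 in the same order, with medians of 0.39 and 0.11. Among them miR-223-3p stood at -0.06 for resistance and 0.01 for aerobic, and miR-21a-5p at 0.60 and 0.27. The 6 endothelium and smooth muscle probes summed to 1154, 1338 and 858, with medians of 0.28 and 0.21. They ran from 0.16 to 0.70 for resistance and from 0.11 to 0.43 for aerobic.

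For resistance, the leukocyte and liver medians were below those of the 3 lists above, while for aerobic both exceeded the platelet median. Of the 6 leukocyte probes 6, 5 and 5 were detected in the resistance, aerobic and control pools, with sums of 705, 791 and 598 and medians of 0.13 for both exercise pools. The compared leukocyte probes ran from -0.06 to 0.34 for resistance and from -0.16 to 0.17 for aerobic. The 3 liver probes, detected on all arrays, summed to 189, 318 and 147, with medians of 0.14 and 0.20, and miR-122-5p, the main hepatocyte miRNA, stood at 0.22 for resistance and 0.68 for aerobic. Of the 4 skeletal muscle probes 4, 3 and 4 were detected, with sums of 316, 161 and 596. Their medians were -0.48 and -1.48, opposite to the members. The compared muscle probes ran from -0.81 to -0.06 for resistance and from -1.55 to -0.99 for aerobic. For resistance, miR-206-3p at -0.06 and miR-1a-3p at -0.20 lay within spot scatter. The part of blood cells, vessel wall and other sources in the members' differences was not tested.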

How the data were processed

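Per the file headers, the deposited files give for each array 3200 spots with their raw intensity, as well as intensities that the authors background-subtracted and globally normalized. From the values, the authors subtracted 1 number per array and set the median miRNA to an intensity of 25. The authors' series table repeats these linear values within 0.05. RNA was labelled with Cy5, per the labels, which name plasma as the tissue but cells in the extraction text. The series text calls the chip human, while all 1900 miRNA probes carry mouse names, which were used.

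The background was the mean of the 896 blank spots, trimmed by 5% at each end. Raw intensities were corrected with normexp (limma 3.58.1, R 4.3.3, offset 50) over all spots. Control spots were then removed and miRNA probes quantile normalized on the log2 scale. The offset draws differences of dim probes towards 0. Differences compare probes detected on both arrays (2 SD above blanks). Alternatives changed the offset, background, scaling and detection. Processing was also run on simulated arrays that had no array-wide or brightness-dependent shift, so the choice of scaling was not tested there.

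Members and lists were chosen with earlier results of these data known. Named were all members, other arms of their hairpins, marker lists and the 6 nearest probes. The brightness bins, within-array ratios, seed-sharing and overlapping probes were added after the data had been seen. The number of arrays limits the precision.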

Additional observations from a re-analysis of the deposited data

How the results depend on the processing

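For resistance against control none of the 7 members detected on both arrays changed sign. Over the alternatives their differences lay between 0.099 and 0.72. Without a detection filter 8 members were compared and 7 were higher. miR-27b-5p, detected on neither array, then stood at 5.78 in resistance and 5.81 in control plasma. For aerobic against control, miR-23b-3p turned to -0.013 with blank subtraction and -0.027 in the authors' values, and miR-24-2-5p to -0.071 with blank subtraction. The aerobic member median of 0.14 became 0.55 without scaling, 0.37 with median scaling and 0.42 with spike-in scaling. For resistance against aerobic the member median of 0.31 became -0.055 without scaling, 0.095 with median scaling and 0.030 with spike-in scaling. The medians over all compared probes were then -0.19, -0.037 and -0.10 in the same order. Without scaling miR-23a-3p stood at -0.055, miR-27a-3p at -0.16, miR-23a-5p at -0.12 and miR-24-2-5p at -0.060. miR-27a-3p was also negative with median scaling (-0.011) and spike-in scaling (-0.076), and miR-23a-5p with spike-in scaling (-0.039).

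Members at least 1.5-fold higher numbered 1 for resistance against control, but 2 with blank subtraction, 3 with offset 0 and 2 without scaling. In the authors' values the count was also 1, but of miR-27b-3p in place of miR-24-3p, which stood at 0.58. They numbered 0 for aerobic against control, but 2 without scaling. They numbered 1 for resistance against aerobic, but 0 without scaling, with median or spike-in scaling and in the authors' values.

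Over all probes, 22 were 1.5-fold higher and 7 lower for resistance against control. Blank subtraction gave 69 and 115, offset 0 gave 61 and 24, and the authors' values 83 and 107. For aerobic against control 6 were higher and 9 lower. Blank subtraction gave 35 and 122, offset 0 gave 30 and 15, no scaling 56 and 4, spike-in scaling 20 and 5, the authors' values 65 and 53, and median scaling 12 higher. For resistance against aerobic 7 were higher and 0 lower. Blank subtraction gave 71 and 50, offset 0 gave 21 and 15, no scaling 3 and 26, median scaling 4 and 2, spike-in scaling 4 and 7, the authors' values 41 and 79, and no detection filter 1 lower. The cause was not tested.

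No paired analysis was possible because each group had 1 array, and no array was left out. Signal over background limits miR-24-2-5p and miR-27b-5p, whose spots lay close to the blanks.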
